A study of Mus musculus with 141 samples.

Results

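The mitochondrial carrier genes are described here in inguinal white adipose tissue (iWAT), the main subcutaneous fat pad of the mouse. They were taken as every gene whose symbol is *Slc25a* followed by a number, together with *Mpc1* and *Mpc2*, and they make up 49 of the 36558 genes listed. The RNA-seq libraries belong to the Hybrid Mouse Diversity Panel, abbreviated HMDP, a set of inbred and recombinant inbred strains, and comprise 67 females and 74 males of 82 strains with 1 library per sex and strain, so the spread within a strain is that between its female and male library. All mice, in both sexes and every strain, were on chow until 8 weeks of age and then for 8 weeks on a diet rich in fat and sucrose (HF/HS), and were fasted for 4 h before collection. No chow-fed group is analysed here, so every value belongs to the HF/HS diet. Strain names sort the libraries into classical inbred strains (21 females, 23 males) and into recombinant inbred families named after their founders, namely BXD (32 and 34), AXB/BXA (9 and 11), CXB (3 and 3) and BXH (2 and 3). Both sexes are present in 59 strains, and these serve for the comparison of females with males.

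The inner mitochondrial membrane is closed to most charged metabolites, and proteins of the Slc25 family exchange them across it. Their substrates range from ADP and ATP, phosphate, citrate and other carboxylates to amino acids, acylcarnitines, cofactors and iron, and the uncoupling protein Ucp1 of brown and beige fat belongs to the same family by sequence. Mpc1 and Mpc2 are unrelated small proteins that form the mitochondrial pyruvate carrier, and in fat the citrate that leaves mitochondria through Slc25a1 feeds the synthesis of fatty acids.

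The shallowest library held 6269154 estimated counts and the deepest 78562648 (median 30233245). In 3 libraries the expression of Y-linked genes went against the sex in the label, 1 of them (the male library of NZW/LacJ) in the 59 matched strains. Skeletal muscle markers exceeded 10 times their median in 14 libraries. Of the marker lists, all 5 adipocyte genes, all 5 macrophage genes and all 4 endothelial genes were lower in females, and all 9 mammary epithelial genes were higher. Of the other lists, 3 of 5 erythroid genes were lower and 1 of 6 brown and beige adipocyte genes was higher, and 0 of 5 lymphocyte and 0 of 7 skeletal muscle genes passed in edgeR, with 0 also at an unadjusted p under 0.05. The summed level of the mammary list ran from 80.4 to 2176 CPM (counts per 1000000 of the TMM-scaled total) in the 59 female libraries and from 0.285 to 476 CPM in the 59 male libraries, where 2 of its 9 genes had a median of 0. The adipocyte sum ran from 3306 to 34560 CPM in females (median 17120) and from 7511 to 42300 CPM in males (median 23900), so adipocyte markers were abundant in both sexes. In bulk tissue, fewer cells of a type and less RNA per cell cannot be told apart.

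Of the 49 genes, 43 had enough counts to be tested. On the TPM scale, which corrects for transcript length and so allows genes to be compared, *Slc25a3*, the phosphate carrier that supplies the ATP synthase, had the highest median over all libraries at 363 TPM. The pyruvate carrier subunits *Mpc2* (346 TPM) and *Mpc1* (323 TPM) and the ADP/ATP carrier *Slc25a5* (307 TPM) followed. The order of these 4 genes did not hold from library to library: *Slc25a3* exceeded *Mpc2* in 75 libraries (of 67 female and 74 male) and *Mpc2* exceeded *Mpc1* in 71. The citrate carrier *Slc25a1* came next at 270 TPM, with its lower quartile of 210 TPM above the upper quartile (142.8 TPM) of the second ADP/ATP carrier, *Slc25a4* (127.8 TPM). The dicarboxylate carrier *Slc25a10* had 102.3 TPM and the carnitine-acylcarnitine carrier *Slc25a20*, which brings long-chain fatty acids in for oxidation, 65.6 TPM.

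*Slc25a1* varied widely between libraries. In females it lay between 30.5 and 858 TPM with a median of 271, and in males between 121.7 and 471 TPM with a median of 267. The shallow female library of BXD34/TyJ, 1 of the 3 that go against their label, held the lowest TPM of 35 of the 43 genes, so the lower ends of the female ranges mostly stand for that library. The plot of TPM by gene shows medians of the sexes that lie close together for most genes against ranges that overlap for all of them.

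**Figure D1:**
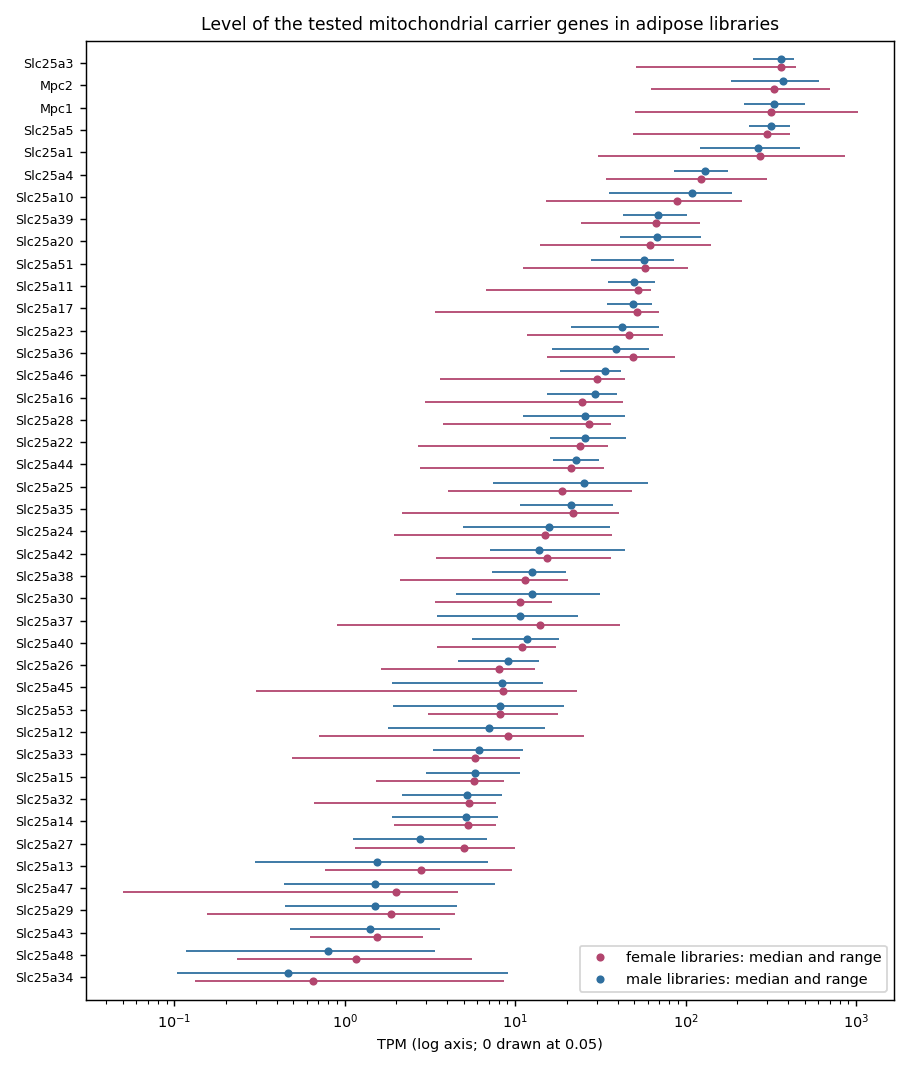
Median (point) and range (line) of TPM in 67 female and 74 male libraries for 42 of the 43 tested carrier genes, on a log axis and ordered by the median over all libraries. *Slc25a3*, *Mpc2*, *Mpc1*, *Slc25a5* and *Slc25a1* stand above 200 TPM, and *Slc25a34* is the lowest tested gene, with female and male ranges overlapping for every gene.

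The 6 genes that were too low to test were *Slc25a2*, *Slc25a18*, *Slc25a21*, *Slc25a31*, *Slc25a41* and *Slc25a54*. *Slc25a31*, the ADP/ATP carrier known from sperm, exceeded 3 counts in 50 libraries and reached 1.66 TPM in 1 female library. *Slc25a21*, the oxodicarboxylate carrier, had a median of 0.149 TPM and a highest value of 0.967 TPM. *Slc25a18* (a glutamate carrier) exceeded 3 counts in 76 libraries and *Slc25a2* (an ornithine carrier) in 59. *Slc25a41* exceeded 3 counts in 5 libraries and *Slc25a54* in 1. At the median depth 3 counts correspond to 0.0992 CPM, which covers counting error only, and expression below that level was not detectable at this depth.

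Carrier genes differed between the sexes in both directions, mostly by a small amount. At an adjusted p under 0.05, 15 of the 43 tested genes were called lower in females and 7 higher, while 30% of all 16765 genes tested were called lower and 28.5% higher. Members called lower thus made up 34.9% and members called higher 16.3%. The median log2 fold change (log2FC, female vs. male) was -0.07 over the members and 0.011 over all genes. Among carriers of acylcarnitine and cofactors 4 of 6 were lower, among nucleotide carriers 4 of 11 were lower and 1 was higher, and among amino acid carriers 3 of 7 were lower and 3 higher.

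*Slc25a25*, an ATP-Mg/phosphate carrier that adjusts the adenine nucleotide pool of mitochondria, had the largest male excess. Its level ran from 17.1 to 87.3 CPM in females (median 37.9) and from 19.3 to 120 CPM in males (median 56.2). The ranges overlapped, yet in 48 of 59 strains the female library was the lower one (log2FC -0.58, SE 0.0992, adjusted p = 1.22e-06, edgeR). *Slc25a10*, which exchanges malate and succinate for phosphate, averaged 140.1 ± 75.04 CPM in females against 174 ± 81.6 in males (mean ± SD over 59 strains, log2FC -0.36, SE 0.111, adjusted p = 0.00444). *Slc25a30*, a carrier related in sequence to the uncoupling proteins, averaged 23.97 ± 4.31 and 30.7 ± 7.64 CPM, and its female library was the lower one of 54 pairs (log2FC -0.34, SE 0.0379). *Slc25a26*, which imports S-adenosylmethionine, had 10.2 ± 2.67 and 12.6 ± 2.80 CPM (log2FC -0.30, SE 0.0524).

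Other genes lower in females had log2FC between -0.28 and -0.07. Among them were *Slc25a16* (counted above with the nucleotide carriers), the glutamate carrier *Slc25a22*, the branched-chain amino acid carrier *Slc25a44* and the outer membrane protein *Slc25a46*. The list also held *Slc25a20*, *Slc25a5*, the pyrimidine nucleotide carrier *Slc25a33*, the glutathione-related *Slc25a40*, the glycine carrier *Slc25a38* and *Slc25a3*. *Slc25a20* was lower in the female library of 45 strains, although its mean of 83.2 ± 50.4 CPM in females was close to the 90.3 ± 32.4 CPM in males (log2FC -0.20, SE 0.0782, adjusted p = 0.027). Its highest female value, 353 CPM, belonged to BXD14/TyJ, far above the female median of 68.8 CPM. *Slc25a44* had 60.5 ± 17.7 and 68.97 ± 13.7 CPM (log2FC -0.21, SE 0.0563). *Slc25a5* had 227 ± 43.02 and 260 ± 48.3 CPM (log2FC -0.19, SE 0.0447, adjusted p = 0.000184). For *Slc25a3* the difference was -0.07 (SE 0.0293, adjusted p = 0.0311) and 0.04 with library totals, from 342 ± 49.96 and 360 ± 46.5 CPM.

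The largest female excess was that of *Slc25a27*, known as uncoupling protein 4 and best studied in brain. It ran from 4.38 to 15.3 CPM in females (median 8.92) and from 3.09 to 11.5 CPM in males (median 5.004). In 58 of 59 strains the female library was the higher one (log2FC 0.81, SE 0.0584, adjusted p = 6.81e-19, edgeR). The male library with 11.5 CPM was that of NZW/LacJ, whose Y-linked expression goes against its label, and the next male value was 8.45 CPM in AKR/J. Among females, the library of BXD69/RwwJ, which also goes against its label, had 4.97 CPM, the second-lowest value of 67. That NZW/LacJ library held 476 CPM of mammary markers and the BXD69/RwwJ library 0.907 CPM.

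Both aspartate/glutamate carriers of the malate-aspartate shuttle were higher in females. *Slc25a13* (citrin) averaged 5.56 ± 3.08 CPM in females against 3.41 ± 2.62 in males (log2FC 0.80, SE 0.131, adjusted p = 5.4e-07), higher in 47 of 59 strains. *Slc25a12* (aralar) had 19.5 ± 7.73 and 14.4 ± 4.68 CPM (log2FC 0.42, SE 0.0728), higher in 49 strains. *Slc25a48*, which has been linked to choline import, had 4.62 ± 4.12 and 3.13 ± 2.13 CPM (log2FC 0.38, SE 0.138, adjusted p = 0.0148), and *Slc25a29*, a carrier of basic amino acids, 2.83 ± 0.900 and 2.27 ± 0.861 CPM (log2FC 0.35, SE 0.0775). *Slc25a36*, a pyrimidine nucleotide carrier, was higher in females in 51 strains (log2FC 0.30, SE 0.0313), and the iron carrier *Slc25a37* (mitoferrin-1) in 42 (log2FC 0.26, SE 0.067). The mammary epithelial markers, all 9 of them higher in females with log2FC from 5.51 to 7.70, moved with these genes, and their part in the differences was not tested.

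The adipocyte markers moved with the genes that were lower, as did all macrophage and endothelial markers and 3 of 5 erythroid markers. The part of these cell types in the differences was not tested. With the mean of the 5 adipocyte markers in the model, 5 members were lower and 8 higher in females, in place of 15 and 7. Of the 15 genes lower before, 3 were called again (*Slc25a30*, *Slc25a38* and *Slc25a40*), and of the 7 higher ones 4 were (*Slc25a13*, *Slc25a27*, *Slc25a36* and *Slc25a48*). In that fit *Slc25a25* had a log2FC of -0.09, *Slc25a30* one of -0.42 and *Slc25a27* one of 0.67. *Slc25a10* changed sign to 0.10, and *Slc25a3*, *Slc25a16*, *Slc25a37*, *Slc25a44* and *Slc25a46* changed sign as well. The scaling also mattered: library totals in place of TMM moved the median of all genes to 0.12. With them 10 members were lower and 15 higher, beside 16.9% and 44.5% of all genes. The median member minus the median of all genes was -0.08 with either scaling. On log2(TPM + 1), 12 members were lower and 10 higher, beside 17.2% and 31.9% of all genes.

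**Figure D2:**
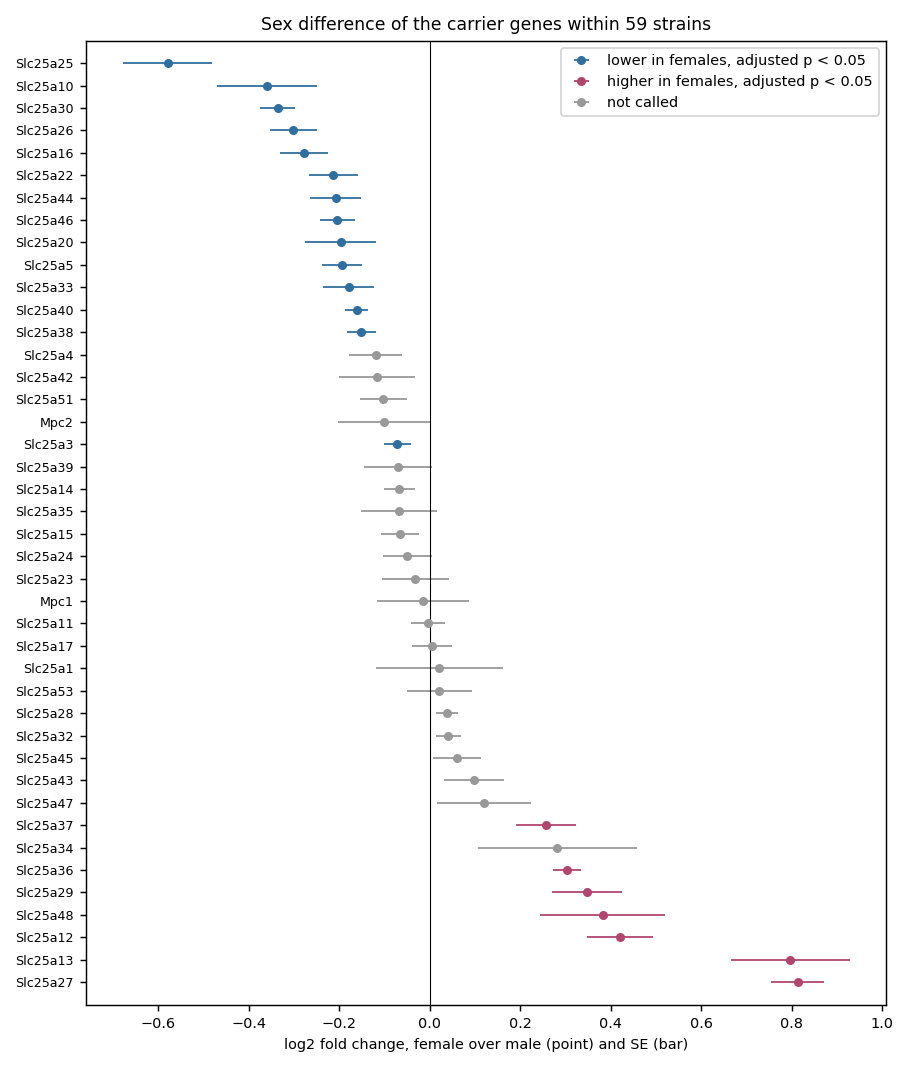
Log2 fold change of female over male libraries (point) and its SE (bar) for 42 of the 43 tested carrier genes, from edgeR's model with strain and sex in 59 strains. The genes called lower in females run from -0.58 for *Slc25a25* to -0.07 for *Slc25a3*, and the 7 called higher reach 0.81 for *Slc25a27*.

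The 21 other tested genes did not pass the threshold, with log2FC between -0.12 and 0.28. *Slc25a4*, the ADP/ATP carrier of heart and muscle, averaged 167 ± 57.6 CPM in females against 177 ± 35.8 in males (log2FC -0.12, SE 0.0587, adjusted p = 0.0738). *Mpc1* had 202 ± 126.7 and 183 ± 61.4 CPM (log2FC -0.01, SE 0.101), and *Mpc2* 120.2 ± 68.7 and 120.3 ± 45.95 CPM (log2FC -0.10, SE 0.101). *Slc25a1* had 281 ± 197 and 239 ± 87.97 CPM (log2FC 0.02, SE 0.14), and the oxoglutarate carrier *Slc25a11* 61.1 ± 11.7 and 61.2 ± 9.12 CPM (SE 0.0369). For *Mpc1*, *Mpc2* and *Slc25a1* the SD over strains was larger in females than in males, and the female range of *Slc25a1*, from 46.8 to 882 CPM, enclosed the male range from 81.9 to 475 CPM. The remaining genes that did not pass were *Slc25a14*, *Slc25a15*, *Slc25a17*, *Slc25a23*, *Slc25a24*, *Slc25a28*, *Slc25a32*, *Slc25a34*, *Slc25a35*, *Slc25a39*, *Slc25a42*, *Slc25a43*, *Slc25a45*, *Slc25a47*, *Slc25a51* and *Slc25a53*.

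Enzymes that work with the carriers were compared in the same fit. All 4 carnitine shuttle enzymes were lower in females, namely *Cpt1b* (log2FC -0.40), *Crat* (-0.39), *Cpt2* (-0.39) and *Cpt1a* (-0.18), as was the carrier *Slc25a20* between them. Of the malate-aspartate shuttle enzymes, the malate dehydrogenases *Mdh1* (-0.26) and *Mdh2* (-0.25) were lower, and the aspartate aminotransferases *Got1* (0.28) and *Got2* (0.50) were higher. In the path from citrate to fatty acids, citrate synthase *Cs* was lower (-0.26) while *Acly* (0.88), *Acaca* (0.74) and *Fasn* (0.55) were higher, with *Slc25a1* between them at 0.02 and *Me1* at 0.26 (adjusted p = 0.166). *Acly* averaged 1005 ± 1109 CPM in females against 395 ± 302 in males.

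Of the pyruvate dehydrogenase complex, which uses the imported pyruvate, *Dld* (-0.28) and *Pdhx* (-0.26) were lower and 3 of 5 genes did not pass. Among carriers with other symbols, *Ucp3* (-0.42), *Mtch2* (-0.21) and *Mtch1* (-0.18) were lower, and *Ucp1* and *Ucp2* had log2FC of 0.00 (SE 0.419) and 0.09. The import machinery for carriers had 2 of 9 genes lower, the receptor *Tomm70a* (-0.15) and the channel *Tomm40* (-0.10), and of the outer membrane channels *Vdac2* (-0.09) and *Vdac3* (-0.12) were lower.

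The sex difference was also compared between BXD and the other strains. The interaction was called for 0 of the 43 genes (edgeR, 0.0% of all genes), and for 0 at an unadjusted p under 0.05 (2.34% of all genes). With limma-voom 0 were called and 1 had an unadjusted p under 0.05. *Slc25a20* had the smallest p, with a difference of 0.28 (SE 0.154, p = 0.0716), so a difference between these strain groups was not detectable with this design.

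Of the 43 genes, 36 differed between the 59 strains, beside 75.8% of all genes. Strain took a median of 29.6% of the variance of log2 CPM around the sex means, and at most 58.1%. The 7 genes that did not pass were *Slc25a1*, *Slc25a5*, *Slc25a14*, *Slc25a16*, *Slc25a23*, *Slc25a25* and *Slc25a36*. Of these, *Slc25a5*, *Slc25a16*, *Slc25a25* and *Slc25a36* were called between the sexes. For *Slc25a1* strain took 0.707% of the variance, and in A/J it had 882 CPM in the female and 120 CPM in the male library.

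*Slc25a34*, a carrier whose substrate is not settled, had the smallest strain p (F = 5.90, adjusted p = 1.32e-09, edgeR's F test of strain). Across all libraries it ran from 0.234 to 38.98 CPM in females (median 1.33) and from 0.222 to 27.9 CPM in males (median 1.001). BXD14/TyJ reached 38.98 CPM in its female and 3.80 CPM in its male library, and SJL/J had 4.87 and 27.9 CPM, so the highest values came from 1 sex of a strain. At the low end both sexes fell together, with 0.323 and 0.362 CPM in BTBR T<+> tf/J. The founders of the BXD strains were far apart, with 0.349 and 0.443 CPM in C57BL/6J and 7.84 and 5.02 CPM in DBA/2J (female and male). *Ucp1* was far apart in the same libraries, with 1.57 and 0.591 CPM in C57BL/6J and 265 and 291 CPM in DBA/2J. The cause of the founder difference was not tested.

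*Slc25a48* was next (F = 4.17), from 1.01 and 0.634 CPM in BXD85/RwwJ to 13.7 and 9.78 CPM in 129X1/SvJ and 20.2 and 5.69 CPM in BXD14/TyJ. *Slc25a42*, which carries coenzyme A and adenine nucleotides, had F = 3.80 and ran from 17.8 and 18.3 CPM in BTBR T<+> tf/J to 130 and 70.3 CPM in MA/MyJ. C57BL/6J had 17.3 and 20.4 CPM of *Slc25a42* and DBA/2J had 52.9 and 51.8 CPM, in the same order as *Ucp1*. For *Slc25a24*, a second ATP-Mg/phosphate carrier (F = 3.66), BXD87/RwwJ had 20.4 and 18.9 CPM and CE/J 51.3 and 74.7 CPM. *Slc25a33* (F = 3.33) had 4.18 and 4.57 CPM in BXD74/RwwJ and 15.2 and 20.4 CPM in CXB11/HiAJ. The SD between strains on the log2 scale was 1.02 for *Slc25a34*, 0.87 for *Slc25a48*, 0.47 for *Slc25a42*, 0.33 for *Slc25a24* and 0.30 for *Slc25a33*, beside SDs within a strain of 0.90, 0.74, 0.46, 0.30 and 0.29.

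**Figure D3:**
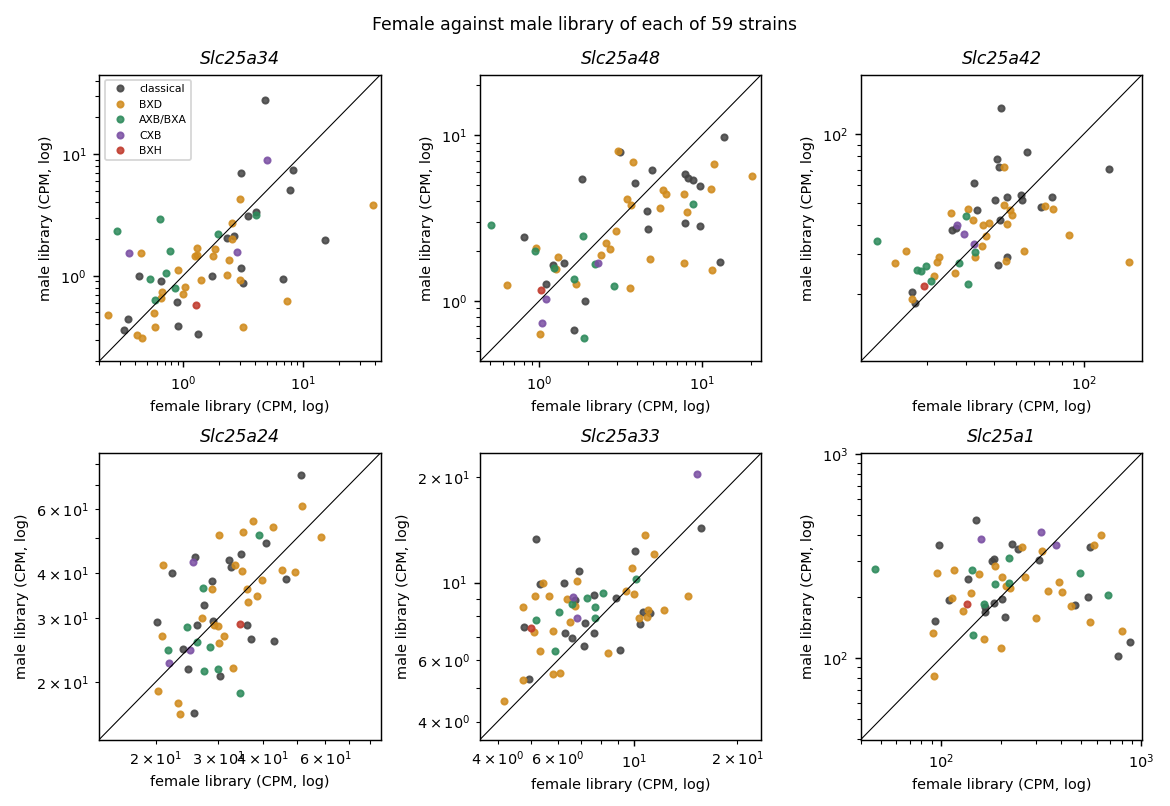
Female library (x axis) against male library (y axis) of each of the 59 matched strains in CPM on log axes, coloured by family, with the line of equal values. *Slc25a34*, *Slc25a48*, *Slc25a42*, *Slc25a24* and *Slc25a33* have the smallest strain p, and the points of *Slc25a1*, for which strain took 0.707% of the variance, scatter without following the line.

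Some strains recurred at the ends. Of the 36 genes called between strains, BXD14/TyJ was among the 3 highest strains for 15, and BXD12/TyJ and CXB11/HiAJ for 14 each. BXD12/TyJ was also among the 3 lowest for 5 and CXB11/HiAJ for 6, so these strains stood at both ends. BXD74/RwwJ was among the 3 lowest for 12 and BXD66/RwwJ for 9. CXB11/HiAJ was the highest strain for *Slc25a10* (443 and 584 CPM in the female and male library), *Mpc2* (263 and 306 CPM) and *Slc25a3* (499 and 550 CPM), and the lowest for *Slc25a45* (7.25 and 7.61 CPM). The muscle-rich female library of BXD79/RwwJ, with 20500 CPM of muscle markers, had the highest *Slc25a4* at 482 CPM against 172 CPM in the male library, and the highest *Slc25a12* at 58.8 against 10.8 CPM. Without the strains that hold a muscle-rich library, 34 members were called between strains, beside 70.9% of all genes. In that fit 13 members were lower and 7 higher in females, beside 29.3% and 24.1% of all genes.

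In males, 7 of the 43 genes differed between the 5 families, beside 10.1% of all genes, namely *Slc25a42*, *Slc25a30*, *Slc25a5*, *Slc25a10*, *Slc25a17*, *Slc25a34* and *Slc25a48*. *Slc25a42* had the smallest p (F = 8.83, adjusted p = 0.00104, edgeR's F test of family) and was called in each of the 7 alternatives tried. Classical males ran from 18.3 to 130 CPM (median 48.1) and BXD males from 18.96 to 71.6 CPM (median 35.2). AXB/BXA males ran from 20.1 to 43.9 CPM (median 26.4), the 3 BXH males had 20.5, 21.7 and 21.8 CPM and the 3 CXB males 32.95, 36.6 and 40.1 CPM. The ranges of classical, BXD and AXB/BXA males overlapped, and BXH males sat near the lower end of all of them. In females *Slc25a42* was not called (adjusted p = 0.144), with medians of 42.2 CPM in classical, 35.4 CPM in BXD and 20.8 CPM in AXB/BXA strains, and the difference between the sexes in this pattern was not tested.

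*Slc25a30* (adjusted p = 0.0123) had a median of 30.8 CPM in classical and 28.1 CPM in BXD males. The highest value, 82.6 CPM, came from 1 of the 3 BXH males, whose other values were 23.8 and 33.5 CPM. *Slc25a5* (adjusted p = 0.0146, edgeR's F test of family) had its highest family median in the 3 CXB males, at 282, 323 and 445 CPM. Medians were 266 CPM in classical, 247 CPM in BXD and 252 CPM in AXB/BXA males, and classical males reached 400 CPM. *Slc25a10* and the peroxisomal carrier *Slc25a17* had their highest family median in the 3 CXB males as well. The CXB males had 232, 245 and 584 CPM of *Slc25a10*, and a lowest value of 60.6 and a median of 62.96 CPM of *Slc25a17*. For *Slc25a5*, *Slc25a10* and *Slc25a17* the highest value of all males came from the same library, that of CXB11/HiAJ. How far these calls rest on that library was not tested. Restricted to BXD, AXB/BXA and classical males, *Slc25a42*, *Slc25a30* and *Slc25a34* were still called among 4 members, beside 6.07% of all genes. There *Slc25a5* (adjusted p = 0.198, edgeR), *Slc25a10* (0.843), *Slc25a17* (0.542) and *Slc25a48* (0.138) were not called. With limma-voom, *Slc25a42* alone was called in males, beside 7.16% of all genes.

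In females, 1 of 43 genes was called, beside 3.92% of all genes. *Slc25a38*, which imports glycine for haem synthesis, ran from 8.07 to 14.2 CPM in classical females (median 10.6), from 7.59 to 15.96 CPM in BXD females (median 10.9) and from 10.6 to 16.4 CPM in AXB/BXA females (median 14.4), with an adjusted p of 0.0414. The ranges overlapped, and the call was lost without muscle-rich libraries, with library totals, with no filter on low counts and on log2(TPM + 1). *Slc25a48* (adjusted p = 0.137) had the next smallest p in females.

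**Figure D4:**
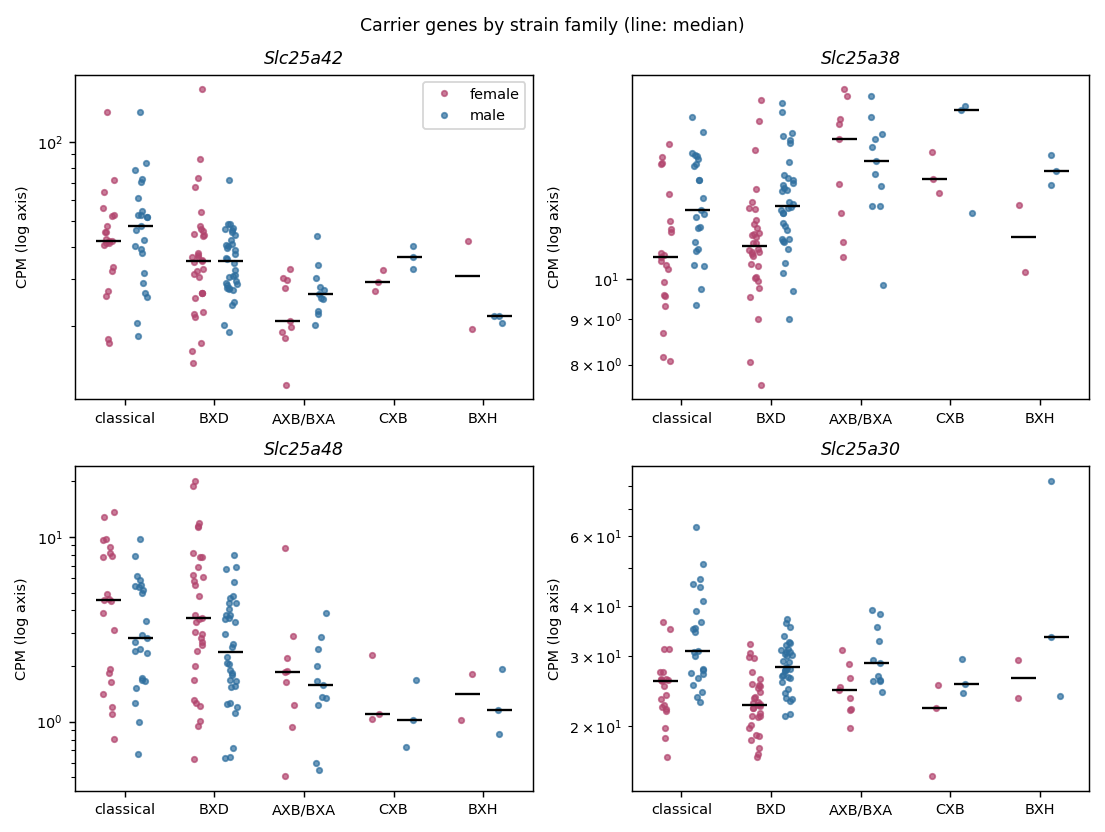
CPM of *Slc25a42*, *Slc25a38*, *Slc25a48* and *Slc25a30* in every library by strain family and sex on log axes, with medians as lines. AXB/BXA libraries of *Slc25a42* lie low in both sexes (medians 20.8 CPM in females and 26.4 CPM in males), and *Slc25a38* lies high in AXB/BXA females (median 14.4 CPM).

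Ucp1, the uncoupling protein of brown and beige adipocytes, is a carrier of the same family under another symbol. It ran from 0 to 2707 CPM in females (median 6.78) and from 0 to 1649 CPM in males (median 7.87), with the highest values in the female libraries of BXD14/TyJ and MA/MyJ (1963 CPM) and in the male library of SJL/J. In females 18 of the 43 carrier genes rose with *Ucp1* across the 67 libraries (permutation test, adjusted over all genes), beside 7.37% of all genes, and in males 7 did across 74 libraries, beside 2.19%. A negative relation was called for 0 genes in either sex (beside 4.34% and 2.34% of all genes). At an unadjusted permutation p under 0.05 it held for 3 genes in females and 0 in males. The median r over the members was 0.23 in females and 0.07 in males, beside -0.037 and -0.001 over all genes. The strength of these relations was not compared between the sexes by a test.

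*Slc25a34* had the highest r in both sexes. In females r was 0.77 (rho 0.76, permutation p = 1e-05 for both, the smallest that the resamples can give, adjusted p = 0.000354), and 0.73 without the 2 libraries farthest from the *Ucp1* median. In males r was 0.57 (rho 0.50, p = 1e-05 and 3e-05), and 0.52 without 2 libraries. *Slc25a20* was second in both, with r of 0.73 in females (rho 0.70, 0.68 without 2 libraries) and 0.55 in males (rho 0.49, both permutation p = 1e-05, r 0.49 without 2 libraries). Next came *Slc25a11* in females (0.66, and 0.44 in males) and *Slc25a48* in males (0.44, and 0.61 in females). The other genes called in both sexes were *Slc25a42* (0.58 and 0.43), *Slc25a5* (0.52 and 0.37) and *Slc25a1* (0.62 and 0.35). *Slc25a5* and *Slc25a1* did not pass by rank correlation in males (adjusted p = 0.0741 and 0.158, permutation test).

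In females *Mpc1* (0.65), *Mpc2* (0.64), *Slc25a32* (0.60), a carrier of folate and FAD, *Slc25a39* (0.58), *Slc25a33* (0.55) and *Slc25a3* (0.54) also rose with *Ucp1*, together with *Slc25a35*, *Slc25a22*, *Slc25a51*, *Slc25a44* and *Slc25a17*. *Slc25a17* did not pass by rank correlation (rho 0.28, adjusted p = 0.116, permutation test). *Slc25a4* had an r of 0.23 in females and -0.01 in males. The lowest r in females were those of *Slc25a24* (-0.32), *Slc25a14* (-0.29) and *Slc25a25* (-0.29), and in males those of *Slc25a16* (-0.16), *Slc25a25* (-0.15) and *Slc25a38* (-0.14), with adjusted permutation p of 0.0691 or more. The libraries with the highest *Ucp1* were those with the highest *Slc25a34* and *Slc25a20*: BXD14/TyJ and MA/MyJ had 38.98 and 15.3 CPM of *Slc25a34* and 353 and 245 CPM of *Slc25a20* in females, and SJL/J had 27.9 and 210 CPM in males. The list of brown and beige adipocyte markers, which holds *Ucp1*, summed to 3973, 2925 and 2501 CPM in these 3 libraries, against medians of 59.7 CPM in the female and 93.3 CPM in the male libraries of matched strains. On log2(TPM + 1), 9 members rose and 8 fell with *Ucp1* in females, beside 2.1% and 32% of all genes. In males 4 members rose and 2 fell, beside 1.79% and 12% of all genes.

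**Figure D5:**
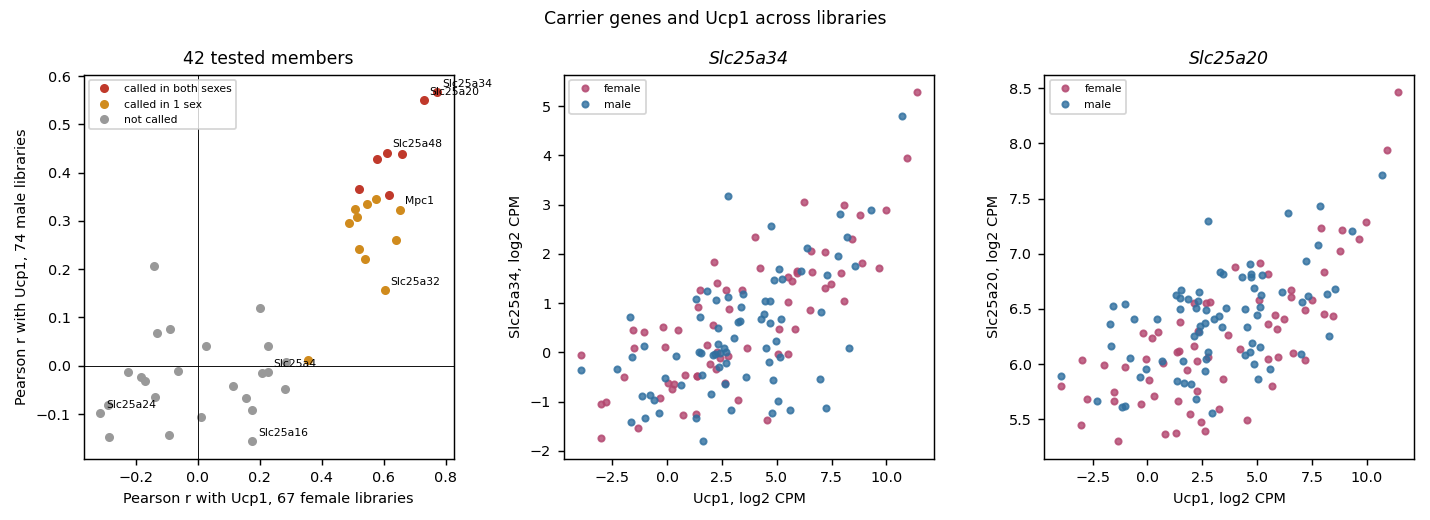
Left, Pearson's r of 42 of the 43 tested carrier genes with *Ucp1* over 67 female (x axis) and 74 male libraries (y axis), coloured by the sexes in which the relation was called. Middle and right, log2 CPM of *Slc25a34* and *Slc25a20* against log2 CPM of *Ucp1*, 1 point per library, with r of 0.77 and 0.73 in females and 0.57 and 0.55 in males.

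The promoters of these leading genes are shown because *Slc25a34* and *Slc25a20* moved together with *Ucp1*, and those of *Mpc1* and *Mpc2* because the products form 1 complex and were the closest pair of members compared. Each is the sequence on GRCm38.p6 from 250 bases before to 50 bases after a RefSeq start, 5′ to 3′ on the strand of the gene. For *Mpc1* and *Mpc2* the window lies downstream of the gene start used for the other results (8282904 and 165460637). Of the 49 members, 38 had such an entry. Capitals mark matches on either strand to any of 5 motifs, none of which contains another. The extended half-site of oestrogen-related receptors was searched as AAGGTCA. The core of the NRF1 element was searched as GCATGCGC. The CCAAT box was searched by the letters of its name. The GC box was searched as GGGCGG. The E-box was searched as CACGTG.
Slc25a34 (chr4:141623785-141624084, minus strand): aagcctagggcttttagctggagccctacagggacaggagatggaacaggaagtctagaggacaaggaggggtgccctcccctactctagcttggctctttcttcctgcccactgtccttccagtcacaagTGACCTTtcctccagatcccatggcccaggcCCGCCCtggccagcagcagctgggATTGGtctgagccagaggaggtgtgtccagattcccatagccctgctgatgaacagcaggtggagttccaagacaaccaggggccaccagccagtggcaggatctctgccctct
Slc25a20 (chr9:108661886-108662185, plus strand): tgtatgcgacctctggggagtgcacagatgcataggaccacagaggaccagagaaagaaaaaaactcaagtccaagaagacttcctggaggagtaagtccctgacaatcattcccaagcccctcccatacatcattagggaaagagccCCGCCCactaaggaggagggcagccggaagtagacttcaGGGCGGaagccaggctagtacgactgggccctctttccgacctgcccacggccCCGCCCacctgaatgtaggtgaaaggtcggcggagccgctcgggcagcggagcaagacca
Mpc1 (chr17:8283537-8283836, plus strand): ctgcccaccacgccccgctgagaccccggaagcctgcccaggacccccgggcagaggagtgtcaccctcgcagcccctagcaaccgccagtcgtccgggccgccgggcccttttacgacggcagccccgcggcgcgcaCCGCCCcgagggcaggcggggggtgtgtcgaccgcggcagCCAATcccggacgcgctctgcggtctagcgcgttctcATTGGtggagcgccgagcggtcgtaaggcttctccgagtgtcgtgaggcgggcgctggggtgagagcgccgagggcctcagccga
Mpc2 (chr1:165461010-165461309, plus strand): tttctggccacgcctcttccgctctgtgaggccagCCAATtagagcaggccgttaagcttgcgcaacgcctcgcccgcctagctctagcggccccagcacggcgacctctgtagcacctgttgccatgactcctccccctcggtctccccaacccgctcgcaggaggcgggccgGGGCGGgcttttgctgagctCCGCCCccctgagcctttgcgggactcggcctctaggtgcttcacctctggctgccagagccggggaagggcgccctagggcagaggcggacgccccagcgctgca

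The promoter of *Slc25a34* held 1 AAGGTCA match, on the opposite strand, and was the only 1 of the 38 member promoters to hold it, beside 4.72% of 32851 promoters. A GC box was found in 32 of 38 member promoters, beside 35.7% of all promoters, and CCAAT in 19 of 38, beside 37.4%. The members are protein-coding genes with 1 promoter each, while all promoters are every entry, not matched for gene type or level. The E-box was found in 6 of 38 (7.15% of all) and GCATGCGC in 2 of 38 (2.71% of all). *Slc25a20* held 3 GC boxes, *Mpc1* 2 CCAAT matches and 1 GC box, and *Mpc2* 1 CCAAT match and 2 GC boxes. A match describes the letters in this window and is not a binding site.

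The 8 pairs of members with related proteins or a shared complex were compared across libraries, which gave 16 relations over both sexes. *Mpc1* and *Mpc2* were the closest, with r of 0.89 in females (rho 0.84) and 0.73 in males (rho 0.70), each with permutation p = 1e-05, and with r of 0.87 and 0.67 without the 2 libraries farthest from the *Mpc1* median. In females *Mpc1* ran from 63.5 to 649 CPM and *Mpc2* from 30.5 to 334 CPM, with both lowest values in AXB12/PgnJ. The ADP/ATP carriers *Slc25a4* and *Slc25a5* followed, with r of 0.51 in females and 0.63 in males (permutation p = 3e-05 and 1e-05). A processed pseudogene of *Slc25a5* and one of *Mpc1* are also listed in the table, so reads of these genes may be split with them.

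*Slc25a12* and *Slc25a13* had r of 0.37 in females and 0.33 in males (adjusted permutation p = 0.00519 and 0.00958), and the uncoupling-protein-like *Slc25a14* and *Slc25a30* 0.29 and 0.30 (0.0277 and 0.0165, same test). The ATP-Mg/phosphate carriers *Slc25a23* and *Slc25a24* were related negatively in males, with r of -0.38 (rho -0.36, adjusted permutation p = 0.0033), and not detectably in females (r -0.05). On log2(TPM + 1) the female r of this pair was 0.40 and the male r -0.17. The iron carriers *Slc25a28* and *Slc25a37* had r of 0.42 in females (adjusted permutation p = 0.00501), but rho was 0.22 and r was 0.24 without 2 libraries, so the relation rested on those libraries. In males their r was 0.11. *Slc25a33* with *Slc25a36* (0.03 and 0.05) and *Slc25a39* with *Slc25a40* (-0.15 and -0.24) did not pass in either sex.

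Several members are neighbours in the genome (GRCm38). *Slc25a43* and *Slc25a5* lie 18448 bp apart on chromosome X, *Slc25a54* and *Slc25a24* 6461 bp apart on chromosome 3, and *Slc25a41* and *Slc25a23* 2056 bp apart on chromosome 17. *Slc25a29* (108825873 to 108835883, minus strand) and *Slc25a47* (108836046 to 108856815, plus strand) on chromosome 12 have 162 bp between them and are transcribed away from each other. *Slc25a29* was called higher in females (0.35) and *Slc25a47* had a log2FC of 0.12 (adjusted p = 0.324). On the TPM scale *Slc25a5* had a median of 307 and its neighbour *Slc25a43* one of 1.47.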

How the data were processed

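Inguinal fat RNA was sequenced in 141 libraries as stranded 100-base paired reads. The authors quantified transcripts with kallisto 0.46.1 on the Ensembl 97 transcripts of GRCm38, with tximport giving gene values. They deposited estimated counts, which need not be whole (30.3% were not) and were rounded here, and TPM, which is scaled to 1000000 per library. Pseudogene copies and overlapping genes share reads. Precision was set by the number of strains and by depth.

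Sex and strain came from the sample titles and families from strain names. AXB19/PgnJ, AXB19a/PgnJ and AXB19b/PgnJ were counted as separate strains, although their names differ by a letter only. Relatedness between strains was not taken into account. Counts were tested with edgeR 4.0.16 (TMM, filterByExpr, quasi-likelihood F test, Benjamini-Hochberg over all genes tested, threshold 0.05) in R 4.3.3. Sex and strain were tested in 1 model of the 59 matched strains, family within each sex, and the sex difference of BXD against other strains as an interaction. Correlations used log2 CPM (prior count 2) with 100000 two-sided permutations. Those with Ucp1 were adjusted over all genes tested in a sex in place of the members, as first planned, and those of pairs over 16 relations. Alternatives used limma 3.58.1, DESeq2 1.42.0, other scalings, filters, samples and covariates, and log2(TPM + 1). The scripts were tested on simulated data.

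Strain paired the sexes: deviations from the sex means correlated at 0.41 on average within a strain (over 0.1 in 45 of 59) and at -0.007 between strains. Named genes were a set of well-known carriers, the 5 largest called sex differences in each direction, the 5 smallest strain p, the 3 smallest family p per sex, the 3 highest and lowest correlations with Ucp1 per sex, the pairs, and the pathway genes called between the sexes. The members, lists and rules were chosen with earlier results of these data known. Values of 1 member are not reported here, although it is counted among the members.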

Additional observations from a re-analysis of the deposited data

Results flagged for a closer look

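In the 9 AXB/BXA females, the highest library stood far from the next for 10 of 43 genes, by a gap of more than 0.493 of the whole range. Chance puts about 1 in 20 groups past that limit, and genes of 1 library are not independent. The AXB5/PgnJ female had 433 CPM of Slc25a3 (next 356), 321 CPM of Slc25a5 (next 240), 8.75 CPM of Slc25a48 (next 2.89), 454 CPM of Mpc1 (next 214) and 273 CPM of Mpc2 (next 121). The AXB12/PgnJ female had 130.9 CPM of Slc25a37 (next 81.9) and 33.1 CPM of Slc25a45 (next 20.04). The BXA2/PgnJ female had 17.8 CPM of Slc25a15 (next 13.03) and 5.28 CPM of Slc25a47 (next 2.55), and the AXB13/PgnJ female had 4.04 CPM of Slc25a34 (next 1.97).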

How the results depend on the processing

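Between strains, the alternatives called from 27 to 39 members, beside 36, where 49 members were tested with no filter and 43 otherwise. The share of all genes called ran from 43.4% with no filter to 84.9% with the adipocyte covariate, beside 75.8%. With the adipocyte markers as a covariate 5 members were lower in females (25.3% of all genes), and with library totals 15 were higher (44.5% of all genes). Among members called in either of the fits compared, the log2FC changed sign with the adipocyte covariate for Slc25a3 (0.03), Slc25a4 (0.16), Slc25a10 (0.10), Slc25a16 (0.02), Slc25a23 (0.37), Slc25a37 (-0.06), Slc25a39 (0.21), Slc25a44 (0.05), Slc25a45 (-0.20), Slc25a46 (0.00) and Slc25a53 (-0.29). Among members so called it changed sign with library totals for Slc25a3 (0.04) and Slc25a11 (0.10), and on log2(TPM + 1) and log2(TPM + 0.1) for Slc25a11 (0.07 in both). With no replicate block, that is without the strain term, 12 members were lower and 7 higher. The shares of all genes called lower and higher were also smaller than with that term. Over all members and alternatives of the sex difference, 15 values called in either fit changed sign, 27 lost and 17 gained their call, and 585 did neither. Members called in no fit also changed sign and are not named. Family calls in males, 7 as reported, numbered 1 with limma-voom, 4 without the CXB and BXH strains and 6 without muscle-rich libraries. They numbered 7 without libraries against their label, 8 on log2(TPM + 1), 9 with library totals and 10 with no filter. On log2(TPM + 1) and with library totals the share of all genes called in males rose too. The higher counts there were thus not particular to the carriers. That share also rose without muscle-rich libraries and fell in the other male fits. Family calls in females numbered 0 on log2(TPM + 1), 0 with library totals and 0 without muscle-rich libraries, each beside a smaller share of all genes than reported. On log2(TPM + 1) the members called with Ucp1 were 9 positive and 8 negative in females, beside 2.1% and 32% of all genes. In males they were 4 and 2, beside 1.79% and 12%. In females the r of Slc25a3 was -0.02 on that scale and that of Slc25a23 with Slc25a24 was 0.40. Without the 3 libraries against their label, an alternative chosen after seeing the data, 1 member was negative in females, beside 5.8% of all genes. The causes were not tested. At the depth of the shallowest library 3 counts are 0.479 CPM.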
